A study of Mus musculus with 28 samples.

Results

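Potassium channel genes of the mouse were examined in neural stem cells (NSCs) of the brain, in peripheral NSCs (pNSCs) and in the cells they were set beside. The genes were every row of the deposited table whose name has the form Kcn, then a family letter or letters, then a number. No measured value entered this rule, though it was set with earlier results of these data known. This gave 92 of the 28244 genes in the table. Roles were assigned by family name alone. The genes hold 30 pore-forming subunits of voltage-gated channels, 10 silent or modulatory voltage-gated subunits, 15 inward rectifiers and 14 two-pore leak channels. They also hold 15 auxiliary subunits and 8 members of the families classed as calcium or sodium activated (Kcnma, Kcnn, Kcnt and Kcnu).

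Bulk RNA-seq of polyA-selected RNA had been made for 28 samples in 11 groups, all labelled strain C57BL/6. The study's methods differ from this label: they give wild-type mice as CD1 or mixed CD1 and C3H, with transgenic mice bred to them. The groups labelled Brain-NSC, Tail-pNSC, Lung-pNSC, Tail and Lung (2 samples each) carry no reporter in their labels and match the groups of the study's experiment on Nes-GFP mice, in which GFP is driven by Nestin regulatory elements. There, pNSC lines came from GFP+ cells of adult lung (about 4 to 6 weeks of age) and postnatal tail (about day 1 to 5). Tail and Lung are the tissue cells that served as controls. No age is given per sample in the labels, so those of Tail, Lung and the brain NSCs are not known here. The groups Sox2-GFP brain NSCs and Sox2-GFP lung pNSCs (3 samples each) came from mice with GFP knocked into Sox2, the pNSCs from GFP+ cells of postnatal lung. The groups Wnt1Cre-mTmG brain NSCs, Wnt1Cre-mTmG Tail pNSCs and Wnt1Cre-mTmG DRG pNSCs (3 samples each) came from mice in which Wnt1-Cre turns cells of the neural crest, and some of the midbrain, from red to green fluorescence. Their pNSCs grew from unsorted postnatal tail or dorsal root ganglion (DRG) cells and were Tomato+/GFP-. The group DRG NCSCs (3 samples) holds neural crest stem cells from DRG of adult wild-type mice. All NSCs and pNSCs were grown in defined medium with EGF and bFGF. Each pNSC line began as 1 cluster picked by hand, so a group may stand for 1 clone. Line, reporter, age, experiment and any difference in strain background cannot be told apart.

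Potassium channels let potassium ions leave or enter a cell along their gradient and so set its resting potential and the shape of its electrical signals. Voltage-gated pores open on depolarisation, inward rectifiers and two-pore channels carry the resting conductance, calcium- and sodium-activated channels couple ion entry to repolarisation, and auxiliary subunits change how pores reach the membrane and how they gate. Astrocytes and their precursors are known for inward rectifiers of the Kcnj10 and Kcnj16 kind, whose subunits assemble with each other, whereas neurons are known for a wide set of voltage-gated pores.

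Library totals ran from 9808246 to 22637031 counts. The Wnt1Cre-mTmG brain NSCs and DRG pNSCs were the shallowest, at 9808246 to 11431445, against at least 16700710 in the other groups. Levels are given as cpm, that is, counts scaled by library size with TMM factors over all 28 samples. The detection floor used, 3 counts, was worth 0.130 to 0.295 cpm. These floors, and the intervals below, cover counting error only. Replicates of 10 groups lay close together, with a chi-square per degree of freedom between paired count profiles of 1.09 to 2.82, whereas replicate 3 of the DRG NCSCs stood apart from replicates 1 and 2 (16.8 and 21.02). Results on DRG NCSCs are therefore also given without it where a call changed. The 5 NSC markers checked had a mean of at least 1 cpm in all 8 NSC and pNSC groups, and the 5 neural crest and Schwann markers in the DRG NCSCs and in Tail. In bulk samples, fewer cells of a type and less RNA per cell cannot be told apart. Counting was by gene, with the strand setting not given in the sources used here, and 42 of the 92 genes overlap another annotated gene. Of those named below, Kcna3, Kcna6, Kcnab2, Kcnab3, Kcnb2, Kcnd2, Kcnd3, Kcne3, Kcne4, Kcnh1, Kcnh2, Kcnip1, Kcnip3, Kcnj6, Kcnj9, Kcnj15, Kcnk1, Kcnk2, Kcnk3, Kcnk10, Kcnk13, Kcnma1, Kcnmb1, Kcnmb2, Kcnmb4, Kcnn2, Kcnq1, Kcnq5, Kcns3 and Kcnt2 are among these, and reads of the overlap may be lost or shared.

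Most of the family was detected somewhere, and few members made up most of the message. A group mean of at least 1 cpm was reached by 78 members in some group, by 27 in all 8 NSC and pNSC groups, and by 16 in all 11 groups. The 14 members under 1 cpm in every group were Kcna7, Kcna10, Kcng3, Kcnh6, Kcnj1, Kcnj6, Kcnj14, Kcnk9, Kcnk15, Kcnk18, Kcnmb3, Kcns2, Kcnu1 and Kcnv2, and none of the 92 was at 0 in all 28 samples. A level under 1 cpm in all 8 NSC and pNSC groups and at least 1 cpm in Tail or Lung was found for 21 members, among them Kcnj8, Kcnk6, Kcnh1 and Kcnq1.

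**Figure D1:**
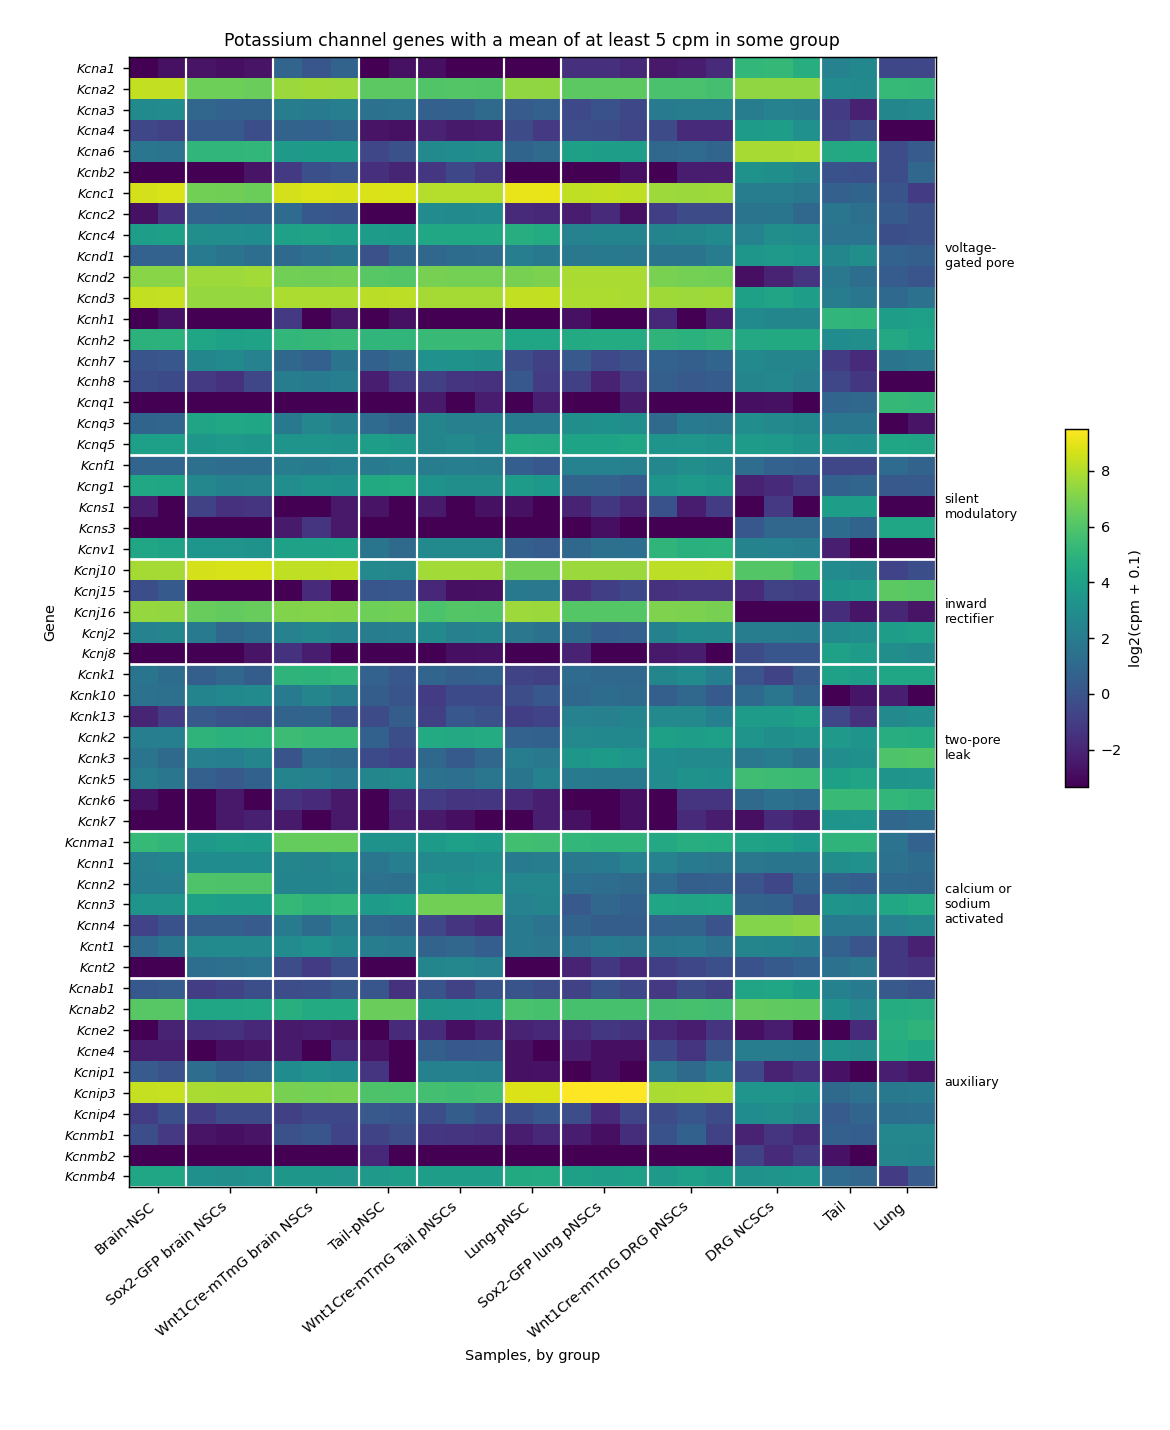
Heat map of 54 potassium channel genes with a mean of at least 5 cpm in some group. Rows are genes by role (named at the right), columns are the 28 samples by group, and colour is log2(cpm + 0.1), from dark (low) to yellow (high). Kcnc1, Kcnd2, Kcnd3 and Kcnj16 are bright across the 8 NSC and pNSC groups and darker in the DRG NCSCs, Tail and Lung, while Kcna6 and Kcnn4 are brightest in the DRG NCSCs.

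Per length of transcript (RPKM, cpm per kilobase of the gene's exons in GENCODE M21), the summed level of the 92 members was 383, 307 and 323 in Brain-NSC, Sox2-GFP brain NSCs and Wnt1Cre-mTmG brain NSCs. In the pNSC groups it ran from 204 in Tail-pNSC and 213 in Wnt1Cre-mTmG Tail pNSCs to 424 in Sox2-GFP lung pNSCs. The DRG NCSCs held 184, Lung 167 and Tail 92.5. The 8 members with the highest RPKM in a group made up 76.0% to 88.8% of that sum in the 8 NSC and pNSC groups and 71.9% in the DRG NCSCs, against 51.0% in Tail and 55.8% in Lung. The roles were unevenly represented: two-pore leak channels held 37.7% of the summed RPKM in Tail and 27.7% in Lung, 12.7% in the DRG NCSCs and 0.958% to 8.21% in the NSC and pNSC groups.

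The same 8 members held most of the top 8 places by RPKM in the NSC and pNSC groups. They were Kcnc1, a pore of fast delayed rectifiers, Kcnd2 and Kcnd3, the pores of the transient A-type current, Kcnip3, a calcium-binding subunit of those A-type channels, Kcnj10 and Kcnj16, the glial inward rectifiers, Kcna2, a low-threshold delayed rectifier, and Kcnab2, a cytoplasmic subunit of Kcna channels. Kcna2 was named after its values were seen. Kcnd3 varied least of these: its RPKM was 33.6 in Brain-NSC, 18.6 in Sox2-GFP brain NSCs and 25.3 in Wnt1Cre-mTmG brain NSCs, and 20.9 to 33.6 over the 5 pNSC groups. Kcnip3 varied most on this scale besides Kcnj10, from 14.2 RPKM in Wnt1Cre-mTmG Tail pNSCs to 203 in Sox2-GFP lung pNSCs. At least 10 cpm in each of the 8 NSC and pNSC groups was reached by 10 members, among them these without Kcnj10 and, chosen after its values were seen, Kcnh2.

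**Figure D2:**
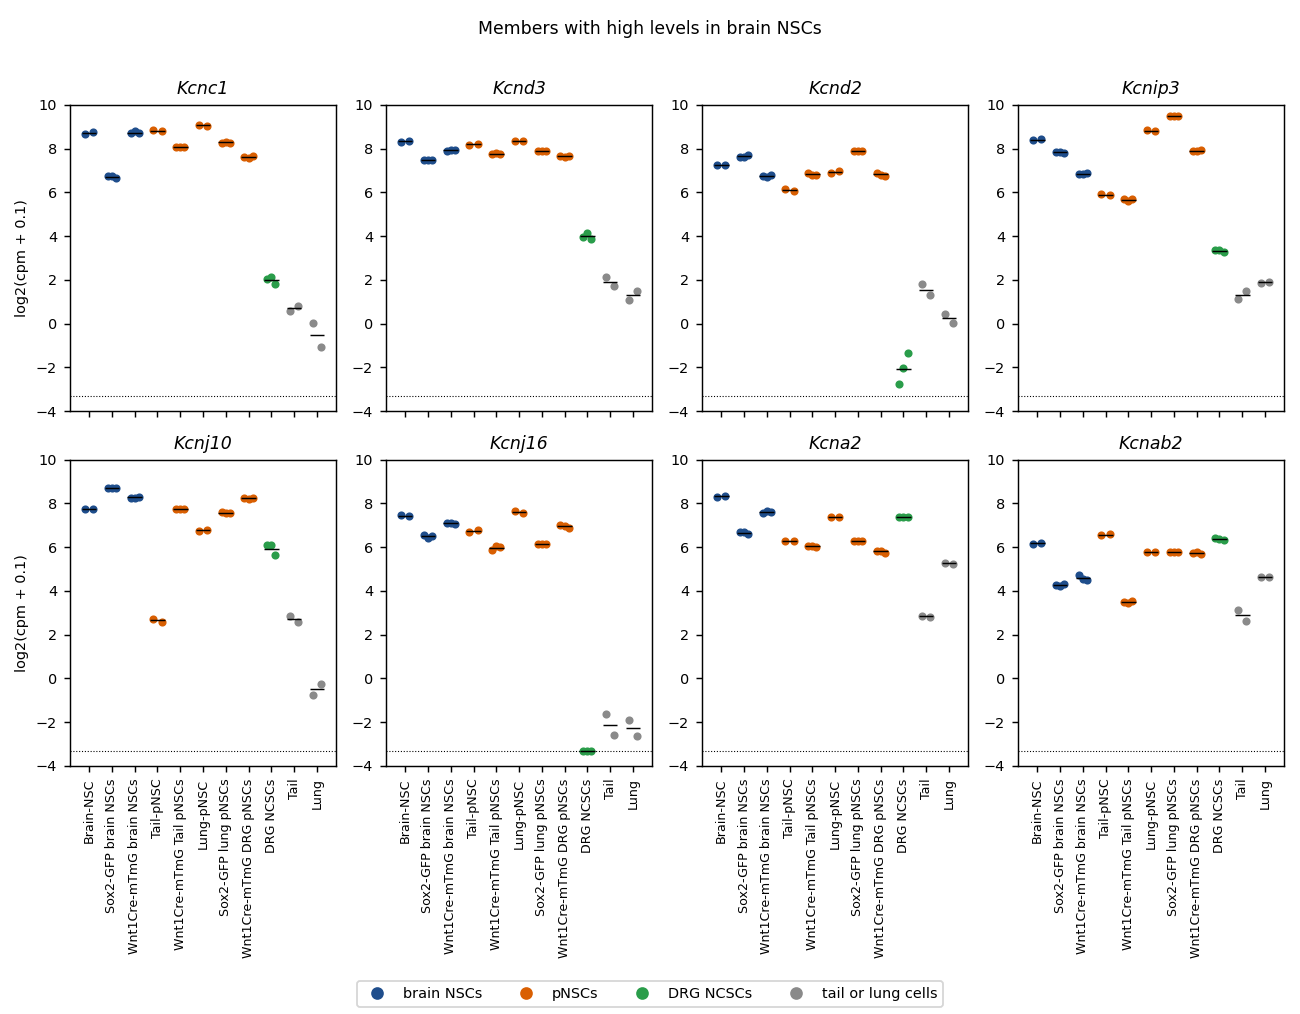
Levels of 8 members in each sample, as log2(cpm + 0.1), by group. Points are samples, horizontal lines are group means on that scale, and the dotted line marks a count of 0. In Kcnj10 the 2 Tail-pNSC samples sit at 6.51 and 5.93 cpm, far below the other NSC and pNSC samples, and in Kcnj16 the 3 DRG NCSC samples are at 0.

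The subunits of the Kcnj10 and Kcnj16 channel are given first, with the start regions of both genes shown because their levels parted in Tail-pNSC and in the DRG NCSCs. Kcnj10 was at 218 and 217 cpm in the 2 Brain-NSC samples, 416, 423 and 419.6 in the Sox2-GFP brain NSCs and 306, 305 and 318 in the Wnt1Cre-mTmG brain NSCs. The Tail-pNSC samples had 6.51 and 5.93 cpm, next to 7.13 and 5.93 in Tail, and these 2 groups overlapped (log2 fold change -0.17 ± 0.14, SE, adjusted p = 0.266 by edgeR's quasi-likelihood test with Benjamini-Hochberg adjustment, which gave all adjusted p values; those too small for the software to write are left out, and the SE is given). All other pNSC samples were far higher, at 215, 211 and 214 cpm in Wnt1Cre-mTmG Tail pNSCs, 108 and 111 in Lung-pNSC, 193, 189 and 189 in Sox2-GFP lung pNSCs and 301, 296 and 306 in Wnt1Cre-mTmG DRG pNSCs. Against its brain NSCs, Kcnj10 changed by -5.13 ± 0.071 (SE) on the log2 scale in Tail-pNSC and by -0.53 ± 0.068 (SE) in Wnt1Cre-mTmG Tail pNSCs, and the difference between these 2 effects, tested as an interaction over all 28 samples, was -4.59 ± 0.11 (SE) with an adjusted p of 7.47e-29. In Lung-pNSC and Sox2-GFP lung pNSCs it changed by -1.003 ± 0.044 (SE) and -1.14 ± 0.022 (SE), the first at the limit of 1 log2 unit for a call and just under it, at -0.980 to -0.997, in 6 of the alternatives tried. Kcnj10 lies on chromosome 1 from 172341210 to 172374085 and Kcnj16 on chromosome 11 from 110968033 to 111027968, both on the plus strand of GRCm38. Kcnj16 was not called in Tail-pNSC, with 103 and 109 cpm in Tail-pNSC against 176 and 172 in Brain-NSC (-0.71 ± 0.041 (SE)), a change below that limit. It was called lower in Wnt1Cre-mTmG Tail pNSCs, at a mean of 63.1 against 136 cpm in their brain NSCs (-1.10). In the tissue cells Kcnj16 was at 0.225 and 0.0638 cpm in Tail and 0.163 and 0.0623 in Lung. In the DRG NCSCs it had no count in any of the 3 samples, so that Wnt1Cre-mTmG brain NSCs were at least 777-fold, Wnt1Cre-mTmG Tail pNSCs at least 361-fold and Wnt1Cre-mTmG DRG pNSCs at least 708-fold higher, taking 3 counts in the shallowest DRG NCSC library as the floor. Those DRG NCSC samples did hold Kcnj10, at 67.3, 67.5 and 49.8 cpm. Kcnj9, an inward rectifier of the G-protein-gated kind and named here after its values were seen, fell by 1.11 in Tail-pNSC, from 2.33 and 1.85 to 0.914 and 1.01 cpm (adjusted p = 0.00560), and rose by 1.59 in Wnt1Cre-mTmG Tail pNSCs (adjusted p = 6.03e-04). The 5 astrocyte markers checked summed to 61.9 to 64.2 cpm in Tail-pNSC and 785.9 to 793.5 in Lung-pNSC, against 330 to 339 in Brain-NSC. The sums were 423 to 433 in Wnt1Cre-mTmG Tail pNSCs and 285.6 to 293.1 in DRG pNSCs, against 1334 to 1354 in their brain NSCs. In Sox2-GFP lung pNSCs they were 415.9 to 425.1, against 1284 to 1312 in their brain NSCs. Single markers did not all move with the sums. In Lung-pNSC Slc1a2 was at 708.5 against 207.2 cpm in Brain-NSC, but Aldh1l1 (10.98 against 78.98) and Gfap (2.648 against 4.116) were lower. In Wnt1Cre-mTmG Tail pNSCs Aldh1l1 was at 10.67 against 965.9 cpm in their brain NSCs, but Slc1a2 was higher (327.5 against 206.4). The part of these markers in the Kcnj10 result was not tested. The 300 bases around the annotated start of Kcnj10 and of the first of 4 listed starts of Kcnj16, from RefSeq on GRCm38.p6, are given with each CpG (CG on the strand shown, the only letters searched, which read the same on the other strand) in capitals.
Kcnj10, chr1:172340960-172341259, plus strand: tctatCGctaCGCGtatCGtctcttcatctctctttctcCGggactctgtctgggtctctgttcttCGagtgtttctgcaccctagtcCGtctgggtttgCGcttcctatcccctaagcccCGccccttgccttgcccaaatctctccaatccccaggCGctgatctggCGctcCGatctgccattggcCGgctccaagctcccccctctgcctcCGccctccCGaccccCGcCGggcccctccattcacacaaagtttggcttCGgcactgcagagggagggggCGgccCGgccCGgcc
Kcnj16, chr11:110967783-110968082, plus strand: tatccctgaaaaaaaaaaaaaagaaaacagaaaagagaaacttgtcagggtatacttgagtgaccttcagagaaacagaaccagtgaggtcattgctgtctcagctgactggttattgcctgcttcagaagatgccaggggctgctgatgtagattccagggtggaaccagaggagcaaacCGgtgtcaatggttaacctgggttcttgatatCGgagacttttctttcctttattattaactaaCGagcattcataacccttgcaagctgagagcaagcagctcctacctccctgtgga
The Kcnj10 window holds 21 CpG and 63.7% G and C, and 24.8% of all 32851 start regions of this length in the table hold as many or more. The Kcnj16 window holds 3 CpG and 44.3% G and C (76.7% hold as many or more), and its 4 starts hold 1 to 8. Methylation at these starts was not analysed here. Start regions were listed for 67 of the 92 members, too few to compare the members' starts as a set.

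DRG NCSCs carried a different set of channels from both pNSC groups of their experiment. Of the 64 members tested there, 46 (71.9%) differed between DRG NCSCs and Wnt1Cre-mTmG brain NSCs (adjusted p under 0.05 and at least 1 log2 unit), 19 higher and 27 lower, beside 36.9% of all 14448 genes tested (22.1% higher and 14.8% lower). Between Wnt1Cre-mTmG Tail pNSCs and DRG NCSCs 49 differed (76.6%, beside 37.9% of all genes, 15.3% higher and 22.6% lower), 23 of them higher and 26 lower in the pNSCs. Between Wnt1Cre-mTmG DRG pNSCs and DRG NCSCs 46 differed (71.9%, beside 38.3%, 15.1% higher and 23.3% lower), 23 in each direction. The median log2 fold change of the tested members was -0.46, 0.40 and -0.04 in these 3 comparisons, beside 0.01, 0.00 and 0.00 over all genes tested. The other 28 members had too few counts to be tested, and a member may have passed that filter through 1 high group alone. The comparisons share the DRG NCSC or the brain samples, so their counts are not independent. Without replicate 3 of the DRG NCSCs the counts were 47, 49 and 47.

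Kcna6, a delayed rectifier of the Kcna family, was the leading member in DRG NCSCs, at 230.0, 226 and 246 cpm (39.3 RPKM). It stood at 12.2, 12.5 and 12.7 cpm in Wnt1Cre-mTmG brain NSCs, 6.82, 7.36 and 7.90 in the tail pNSCs and 1.95, 2.17 and 1.73 in the DRG pNSCs of that experiment. The groups did not overlap, and the log2 fold change of the DRG pNSCs over the DRG NCSCs was -6.91 ± 0.084 (SE) (adjusted p = 8.88e-21). Kcnn4, the intermediate-conductance calcium-activated channel, was at 137, 139 and 156 cpm in DRG NCSCs. It was at 3.66, 2.22 and 4.22 cpm in Wnt1Cre-mTmG brain NSCs, 0.568, 0.276 and 0.201 in Tail pNSCs and 1.52, 1.58 and 0.865 in DRG pNSCs. No sample of these groups came near the DRG NCSCs, and the log2 fold changes over the DRG NCSCs were -8.64 ± 0.16 (SE) in the Tail pNSCs (adjusted p = 1.69e-18) and -6.77 ± 0.15 (SE) in the DRG pNSCs (adjusted p = 2.97e-17). Kcna1, which assembles with Kcna2 and Kcna6 in axons, had 35.6, 37.1 and 25.4 cpm in DRG NCSCs and at most 0.192 in the 6 pNSC samples of the experiment. With 1 count in all 3 Wnt1Cre-mTmG Tail pNSC samples together, DRG NCSCs exceeded them 2107-fold (95% counting interval 378 to 83237).

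Further members high in DRG NCSCs belonged to several roles. Kcnk5, an acid-sensitive two-pore channel chosen after its values were seen, was at 44.6 ± 2.50 (SD, n = 3) cpm against 4.61 ± 0.717 (SD, n = 3) in Wnt1Cre-mTmG brain NSCs (log2 fold change 3.29 ± 0.11 (SE), adjusted p = 8.30e-15). Kcnk13, another two-pore channel, was at 14.1 ± 1.38 (SD, n = 3) against 1.37 ± 0.451 (SD, n = 3) cpm (3.38 ± 0.21 (SE), adjusted p = 1.02e-10). Kcnb2, a slow delayed rectifier, was at 9.44, 8.37 and 6.12 cpm in DRG NCSCs and at most 0.0985 in the DRG pNSCs. Kcnh1, a channel of the ether-a-go-go family, was at 6.94, 5.91 and 5.89 cpm in DRG NCSCs and had no count in the Wnt1Cre-mTmG Tail pNSCs, a difference of at least 41.4-fold. Kcne4, a single-span subunit of Kcnq channels, was at 4.07 ± 0.292 (SD, n = 3) cpm in DRG NCSCs. The Wnt1Cre-mTmG brain NSCs held 3 Kcne4 counts in all, which made the DRG NCSCs 45.2-fold (95% counting interval 15.5 to 219) higher. Kcnab2 was at 86.02, 83.3 and 80.7 cpm, above every sample of the brain NSCs and pNSCs of the experiment (1.82 ± 0.059 (SE) against the brain NSCs, adjusted p = 5.96e-15).

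The A-type pores Kcnd2 and Kcnd3 and the fast pore Kcnc1 were low in DRG NCSCs. Kcnd2 had 0.0463, 0.142 and 0.291 cpm there, against 109, 105 and 110.2 in Wnt1Cre-mTmG brain NSCs, 117, 112 and 112 in Tail pNSCs and 119.7, 113 and 108 in DRG pNSCs. The DRG NCSC samples, with 9 counts in all, did not overlap any other group of the experiment, with log2 fold changes of pNSCs over DRG NCSCs of 9.48 and 9.47 (without replicate 3, 10.1 for both). Kcnd3 was lower but present, at 15.6, 17.9 and 14.4 cpm against 241, 242 and 245 in the brain NSCs (-3.91 ± 0.055 (SE), adjusted p = 5.41e-20). Kcnc1 was at 4.07, 4.30 and 3.38 cpm against 414, 445 and 423 (-6.74 ± 0.060 (SE), adjusted p = 2.87e-22). Kcnip3 was at 10.1, 10.3 and 9.44 against 116, 115 and 118 cpm (-3.53 ± 0.052 (SE), adjusted p = 1.12e-19). Kcnn3, a small-conductance calcium-activated channel, was at 1.62, 1.47 and 0.816 cpm in DRG NCSCs and 107, 109.6 and 107 in Wnt1Cre-mTmG Tail pNSCs, the highest of all 11 groups (6.33 ± 0.098 (SE), adjusted p = 1.83e-19). Kcna2, Kcnmb4 (a neuronal subunit of the BK channel) and Kcnq5 (an M-current pore) differed from the brain NSCs by -0.22, -0.100 and 0.29, all under the limit of 1. Other members of the same families went another way. Kcnd1 was called higher in DRG NCSCs than in the brain NSCs, at means of 11.3 and 2.51 cpm. Kcnc2 had a mean of 2.68 cpm in DRG NCSCs and 1.38 in the brain NSCs, not called. It was called lower in DRG pNSCs (0.595) and higher in Wnt1Cre-mTmG Tail pNSCs (6.96) than in DRG NCSCs.

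**Figure D3:**
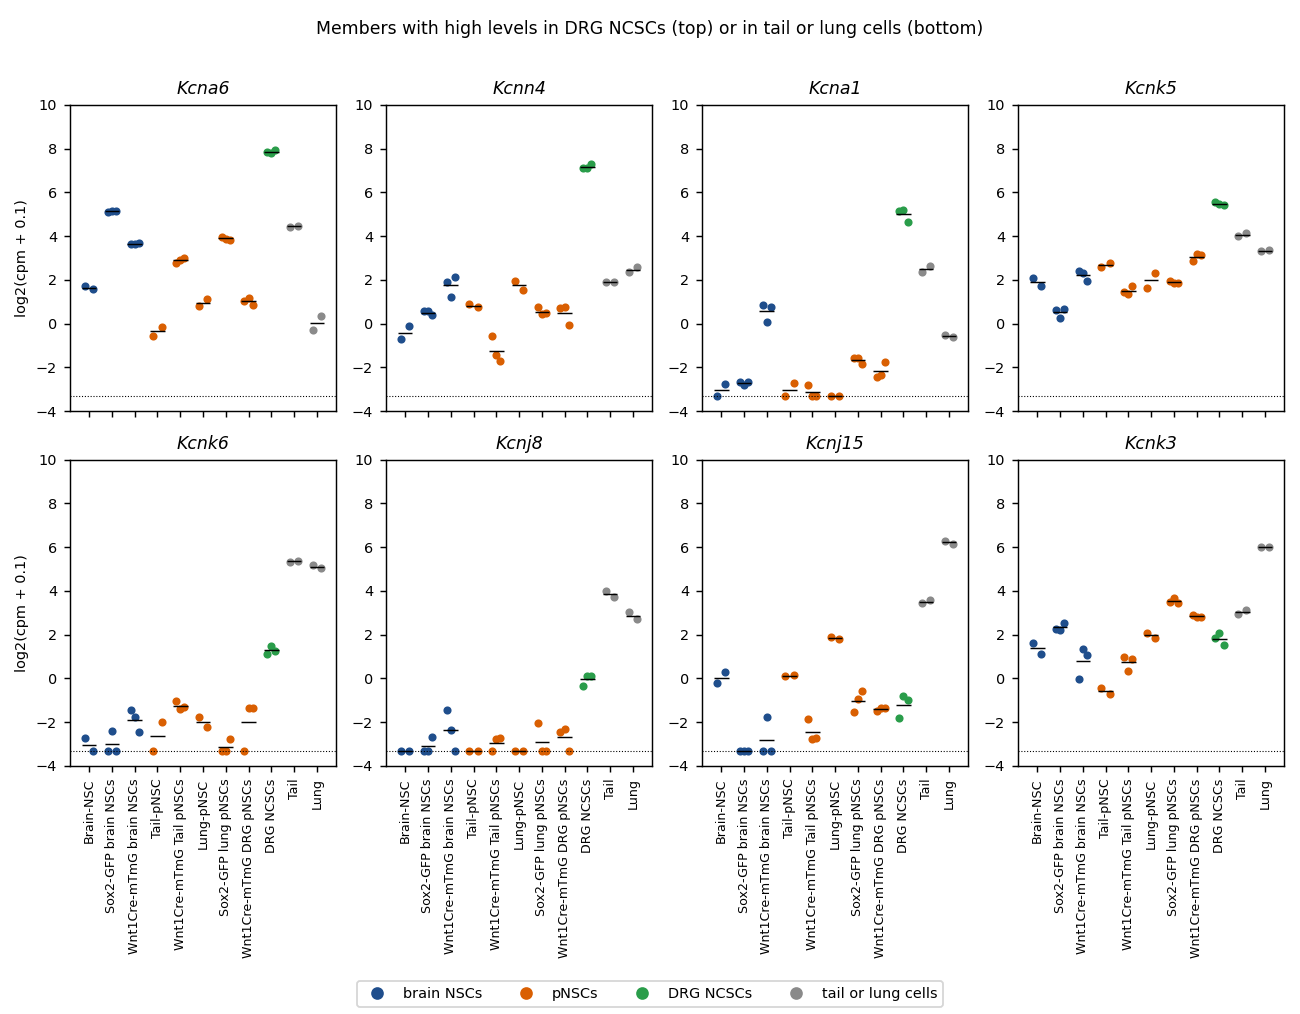
Levels of 8 further members in each sample, as log2(cpm + 0.1), by group. Points are samples, horizontal lines are group means on that scale, and the dotted line marks a count of 0. The top row shows 4 members whose highest samples are DRG NCSCs (Kcna6 at 226 to 246 cpm), and the bottom row 4 members whose highest samples are tail or lung cells (Kcnk6 at 32.6 to 41.6 cpm).

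The pNSCs differed from the tissue cells in most members that could be tested. Of 82 members tested, 63 (76.8%) differed between Tail-pNSC and Tail, 25 higher and 38 lower, beside 46.7% of all 16948 genes (14.1% higher and 32.6% lower). Between Lung-pNSC and Lung 66 differed (80.5%, beside 55.0%, 20.2% higher and 34.9% lower), 26 higher and 40 lower. Between Sox2-GFP lung pNSCs and the same Lung samples 61 of 77 differed (79.2%, beside 56.3% of 16234 genes, 21.3% higher and 34.9% lower), 23 higher and 38 lower. Since Lung matches the experiment on Nes-GFP mice, experiment, reporter and age may also differ in this last comparison. The medians of the tested members were -0.92, -1.03 and -1.01 log2 units, beside -0.16, -0.15 and -0.12 over all genes tested, a shift of all genes to which these changes are relative. The tissue samples were mixtures: the 5 fibroblast markers summed to 45360 to 46640 cpm in Tail and the 5 endothelial markers to 4022 to 4099 cpm in Lung, against at most 356 and 8.11 cpm in any NSC or pNSC sample. The 5 epithelial markers summed to 24940 to 25500 cpm in Lung and 3900 to 3996 in Tail, against at most 0.344 in any NSC or pNSC sample. The part of the mixture in these differences was not tested.

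The two-pore and inward rectifier members Kcnk6, Kcnj8, Kcnj15, Kcnk3 and Kcnj2 were higher in Lung than in Lung-pNSC. Kcnk6, a two-pore channel of the TWIK kind, was at 39.6 and 41.6 cpm in Tail and 35.6 and 32.6 in Lung. In Tail-pNSC, Lung-pNSC and Sox2-GFP lung pNSCs no sample exceeded 0.190 cpm. With 3 counts in the 2 Tail-pNSC samples together, Tail was 504-fold (95% counting interval 173 to 2445) higher. Kcnj8, the pore of vascular ATP-sensitive channels, was at 15.9 and 13.1 cpm in Tail and 8.04 and 6.48 in Lung and had no count in Tail-pNSC or Lung-pNSC, differences of at least 84.9-fold and at least 43.4-fold. Kcnj15, an inward rectifier of epithelia, was at 77.9 and 71.2 cpm in Lung and 10.8 and 11.8 in Tail. It was at 3.56 and 3.41 cpm in Lung-pNSC, above the Brain-NSC samples at 0.761 and 1.12 (log2 fold change 1.87 ± 0.26 (SE), adjusted p = 1.45e-11) and below Lung (-4.45 ± 0.11 (SE)). Kcnk3, an acid-sensitive two-pore channel, was at 63.6 and 64.3 cpm in Lung against 4.17 and 3.46 in Lung-pNSC and 11.1, 12.5 and 10.7 in Sox2-GFP lung pNSCs, with no overlap. Kcnj2, a classical strong inward rectifier, was detected in every sample, at 14.6 and 16.1 cpm in Lung against 3.32 and 2.68 in Lung-pNSC (-2.37 ± 0.16 (SE), adjusted p = 3.94e-47).

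Kcnq1, the pore of a slow delayed rectifier, was at 37.4 and 36.3 cpm in Lung and 1.74 and 1.91 in Tail, and no Tail-pNSC, Lung-pNSC or Sox2-GFP lung pNSC sample exceeded 0.112 cpm. Kcne3, a subunit that keeps Kcnq1 channels open in epithelia, was at 2.47 and 2.49 cpm in Tail and 1.85 and 1.25 in Lung and had no count in Tail-pNSC or Lung-pNSC, which makes the tissues at least 14.5-fold and at least 9.24-fold higher than these lines. Kcnmb1, the smooth muscle subunit of the BK channel, was at 5.92 and 5.98 cpm in Lung against 0.0948 and 0.167 in Lung-pNSC (-5.498 ± 0.43 (SE), adjusted p = 2.11e-36). In Tail it was at 1.40 and 1.34 cpm against 0.514 and 0.709 in Tail-pNSC (-1.23, adjusted p = 0.00559), a call lost without Tail-pNSC replicate 1 (-1.03, adjusted p = 0.0516). Kcnmb2, an inactivating BK subunit, was at 5.71 and 5.49 cpm in Lung and had no count in either lung pNSC group, differences of at least 33.4-fold and at least 38.98-fold. Kcns3, a silent subunit of Kcnb channels, was at 19.02 and 19.1 cpm in Lung and had no count in Lung-pNSC, at least 114-fold lower. Kcnh1 was at 34.3 and 33.6 cpm in Tail and 13.96 and 14.8 in Lung and had no count in Lung-pNSC, at least 85.99-fold lower. Kcnk16, a two-pore channel, was seen mainly in Tail, at 3.48 and 4.85 cpm, with no count in Tail-pNSC.

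The members higher in pNSCs than in tissue cells included those that led the NSC list. Kcnc1 was at 459 and 445 cpm in Tail-pNSC against 1.40 and 1.66 in Tail (8.12 ± 0.076 (SE)), at 539 and 532 in Lung-pNSC against 0.924 and 0.374 in Lung (9.598 ± 0.083 (SE)) and at 311, 317 and 307 in Sox2-GFP lung pNSCs (8.83 ± 0.078 (SE)). Kcnd3 was at 289 and 296 cpm in Tail-pNSC against 4.27 and 3.19 in Tail, and at 322 and 322 in Lung-pNSC against 2.01 and 2.74 in Lung. Kcnip3 was at 59.9 and 58.7 cpm in Tail-pNSC against 2.08 and 2.74 in Tail, and at 722, 712 and 725 in Sox2-GFP lung pNSCs against 3.53 and 3.68 in Lung. No sample of the pNSC and tissue groups overlapped for these 3 members. Kcnj4, a strong inward rectifier, and Kcnh5, a relative of Kcnh1, had no count in Lung, and Lung-pNSC was at least 11.6-fold and at least 6.17-fold higher. Kcnma1, the pore of the BK channel, went in opposite directions in the 2 tissues: it was lower in Tail-pNSC (9.48 and 9.38 cpm) than in Tail (32.3 and 32.7; -1.87 ± 0.10 (SE), adjusted p = 2.15e-76) and higher in Lung-pNSC (48.3 and 47.5) than in Lung (2.83 and 1.56; 4.38 ± 0.13 (SE), adjusted p = 8.16e-254). Kcnq5 was close in both, with changes of 0.48 and 0.21.

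Against brain NSCs, the pNSCs differed in fewer members. For Tail-pNSC against Brain-NSC 24 of 82 tested members differed (29.3%, beside 10.9% of all genes tested, 4.31% higher and 6.59% lower), 5 higher and 19 lower. For Lung-pNSC against Brain-NSC 16 of 82 differed (19.5%, beside 8.71%, 4.56% higher and 4.15% lower), 7 higher and 9 lower. For Wnt1Cre-mTmG Tail pNSCs against their brain NSCs 29 of 64 differed (45.3%, beside 18.2%, 9.16% higher and 9.05% lower), 7 higher and 22 lower. For the Wnt1Cre-mTmG DRG pNSCs 27 of 64 differed (42.2%, beside 9.53%, 3.12% higher and 6.41% lower), 7 higher and 20 lower. For Sox2-GFP lung pNSCs against Sox2-GFP brain NSCs 34 of 77 differed (44.2%, beside 15.7%, 5.76% higher and 9.99% lower), 14 higher and 20 lower. The medians of the tested members were -0.19, 0.00, -0.59, -0.28 and 0.00 log2 units, and those over all genes tested lay between 0.00 and 0.01. Of the 63 members tested in all 5 comparisons, 13 were called in none, among them Kcnd3, Kcnj2, Kcnmb4, Kcnq5, Kcnk6 and Kcnh2. The share of all genes called in none was not computed. The first 2 comparisons share the Brain-NSC samples and the next 2 the Wnt1Cre-mTmG brain NSC samples, so agreement within those pairs is not independent. The 5 fibroblast markers summed to 347 to 356 cpm in Wnt1Cre-mTmG Tail pNSCs against 29.9 to 30.6 in their brain NSCs, and their part in the changes of that line was not tested.

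**Figure D4:**
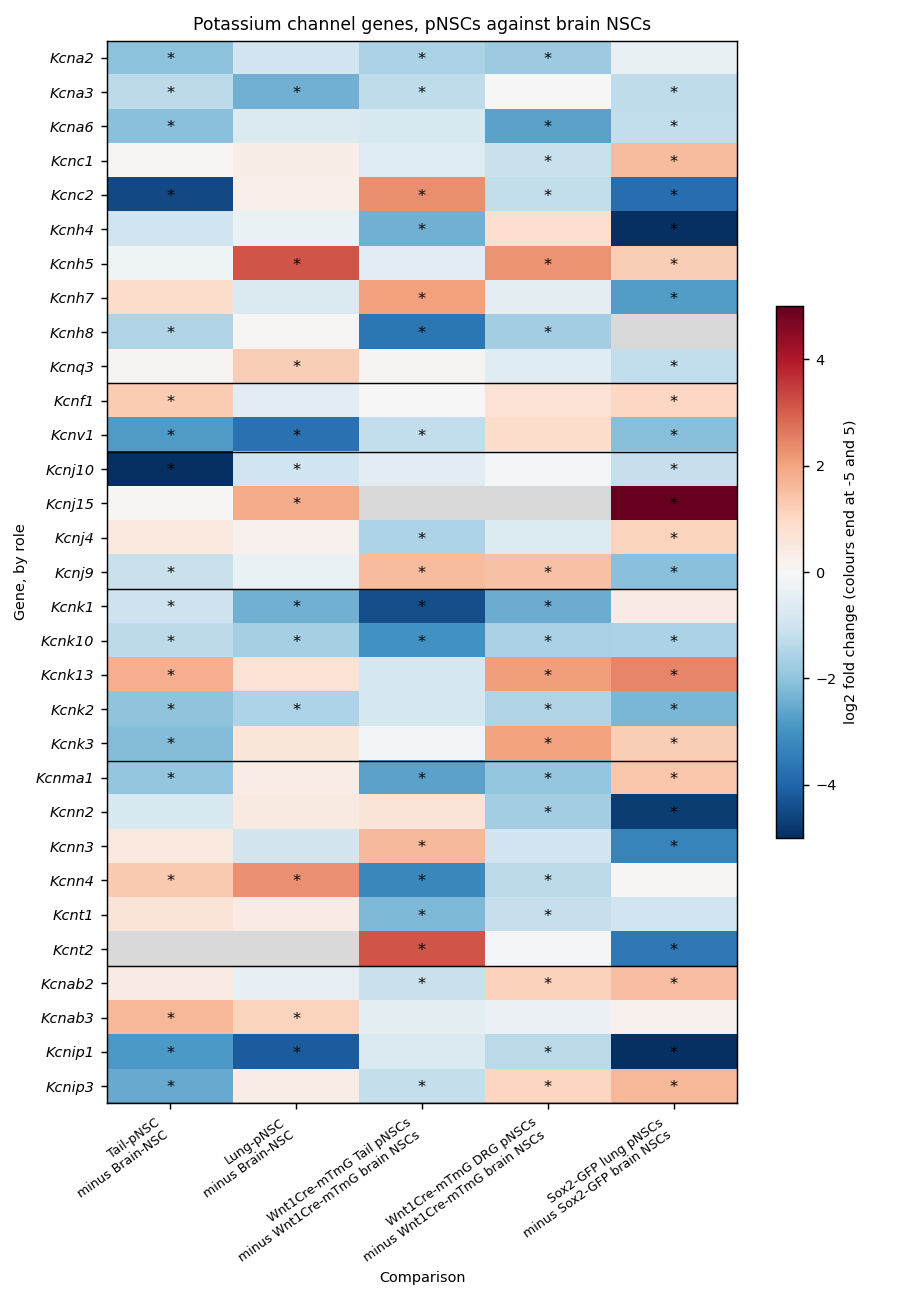
Log2 fold changes of pNSCs over brain NSCs for 31 members called in at least 2 of the 5 comparisons and with a mean of at least 2 cpm in a group compared. Rows are genes by role, columns are comparisons, blue is lower and red higher in pNSCs, stars mark calls (adjusted p under 0.05 and at least 1 log2 unit), and grey marks members not tested, or at 0 in both groups. Kcnk10 is blue with a star in all 5 columns. Kcnj15 had no count in Sox2-GFP brain NSCs and Kcnc2 none in Tail-pNSC. The colours of the last cell of Kcnj15 and the first cell of Kcnc2 depend on the count added by the fit.

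The two-pore leak channels Kcnk10 and Kcnk2, of the mechanosensitive TREK kind, were lower in the pNSCs. Kcnk10, named after its values were seen, was the 1 member called lower in all 5 comparisons. It was at 2.74 and 2.58 cpm in Brain-NSC against 1.26 and 0.912 in Tail-pNSC and 0.711 and 1.00 in Lung-pNSC. In the Wnt1Cre-mTmG experiment it was at 3.84, 5.61 and 4.14 cpm in brain NSCs, 0.393, 0.644 and 0.604 in Tail pNSCs and 1.36, 1.87 and 1.15 in DRG pNSCs, and it was at 5.36, 6.31 and 6.71 in Sox2-GFP brain NSCs and 1.87, 2.18 and 2.04 in the lung pNSCs. All pNSC samples lay below the brain NSC samples of their experiment, and the log2 fold changes were -1.300, -1.65, -3.03, -1.63 and -1.59 (adjusted p = 4.30e-04, 1.67e-05, 9.02e-08, 1.69e-04 and 3.27e-23). Its relative Kcnk2 was at 4.31 and 4.58 cpm in Brain-NSC, 1.49 and 0.760 in Tail-pNSC and 1.52 and 1.51 in Lung-pNSC. It was at 44.2, 40.04 and 41.8 cpm in Wnt1Cre-mTmG brain NSCs, 22.9, 21.3 and 23.7 in the Tail pNSCs and 15.3, 14.4 and 14.9 in the DRG pNSCs, and at 32.04, 29.3 and 30.9 and 6.46, 6.18 and 6.30 in the Sox2-GFP brain NSCs and lung pNSCs. The groups did not overlap in any of these, and the changes of -2.01, -1.56, -1.498 and -2.28 were called, while that of the Wnt1Cre-mTmG Tail pNSCs, -0.89 ± 0.069 (SE), was under the limit of 1. Also called lower in 4 of the 5 comparisons were Kcna3, Kcnk1, Kcnv1 and, named after its values were seen, Kcnip1, a calcium-binding subunit of A-type channels. No member was called higher in 4 or 5, and 16 members were called in both directions. These counts across comparisons were not made over all genes, so whether they are particular to these members cannot be said.

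Other two-pore channels differed from line to line. Kcnk1, a weak inward rectifying two-pore channel, fell from 31.98, 31.1 and 34.9 cpm in Wnt1Cre-mTmG brain NSCs to 1.70, 1.38 and 1.46 in Tail pNSCs (-4.42 ± 0.15 (SE), adjusted p = 3.95e-14) and 5.84, 7.09 and 4.52 in DRG pNSCs (-2.49 ± 0.13 (SE), adjusted p = 8.94e-11). In Lung-pNSC it was at 0.522 and 0.447 cpm against 3.04 and 2.19 in Brain-NSC (-2.41 ± 0.34 (SE), adjusted p = 2.03e-11). For Tail-pNSC the change was -1.04, which was -0.76 without Tail-pNSC replicate 2 and -0.79 without Brain-NSC replicate 1, below the limit. In Sox2-GFP lung pNSCs it was 0.39 and was not called. Kcnk3 rose in DRG pNSCs, from 0.893, 2.42 and 2.03 to 7.45, 6.99 and 6.83 cpm (2.000 ± 0.25 (SE), adjusted p = 4.59e-06), and in Sox2-GFP lung pNSCs, from 4.73, 4.58 and 5.62 to 11.1, 12.5 and 10.7 (1.21 ± 0.10 (SE), adjusted p = 6.81e-32). It fell in Tail-pNSC, from 2.99 and 2.09 to 0.628 and 0.507 cpm (-2.15 ± 0.33 (SE), adjusted p = 3.38e-10). Kcnk13 rose from 1.61, 1.64 and 0.845 to 6.44, 6.50 and 4.52 cpm in DRG pNSCs (2.105 ± 0.27 (SE), adjusted p = 4.80e-06) and from 1.09, 0.865 and 0.803 to 5.07, 4.65 and 5.33 in Sox2-GFP lung pNSCs (2.45 ± 0.20 (SE), adjusted p = 1.36e-34). Its call in Tail-pNSC (1.83, adjusted p = 0.00152) was lost without Tail-pNSC replicate 2 (1.31) or Brain-NSC replicate 1 (1.33).

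The voltage-gated pores Kcna2, Kcna3 and Kcna6 were each lower than in brain NSCs in 3 or 4 of the 5 comparisons. Kcna1 was called lower in Wnt1Cre-mTmG Tail pNSCs (-5.95) and DRG pNSCs (-3.46). The means there were 0.0146 and 0.125 cpm, under the detection floor, against 1.42 in their brain NSCs. Kcna1 was called higher in Sox2-GFP lung pNSCs (0.239, 0.232 and 0.178 against 0.0576, 0.0432 and 0.0574 cpm, 1.93, adjusted p = 0.0359). That call was lost without the low-count filter, with the replicate block and by DESeq2 (adjusted p of 0.0662, 0.0672 and 0.0890), and on leaving out any 1 of the Sox2-GFP brain NSC samples or either of replicates 1 and 2 of the lung pNSCs (1.79 to 2.00 log2 units). Kcna2 was at 316 and 326 cpm in Brain-NSC and 77.5 and 77.7 in Tail-pNSC (-2.05 ± 0.039 (SE)). It was at 191, 203 and 196 cpm in Wnt1Cre-mTmG brain NSCs, 65.9, 66.6 and 64.3 in Tail pNSCs (-1.58 ± 0.039 (SE), adjusted p = 8.13e-16) and 56.9, 57.1 and 53.4 in DRG pNSCs (-1.82 ± 0.042 (SE), adjusted p = 1.42e-15). In the lung pNSCs its change was -0.95 in Lung-pNSC and -0.37 in Sox2-GFP lung pNSCs, both under the limit of 1. Kcna3, a delayed rectifier best known from lymphocytes, was called lower in 4 of 5 comparisons (-1.32, -2.403, -1.29 and -1.25) and was not called in DRG pNSCs, at 3.81, 4.14 and 4.23 against 4.11, 3.67 and 4.31 cpm. Kcna6 was called lower in Tail-pNSC (-2.11 ± 0.32 (SE)), DRG pNSCs (-2.67 ± 0.13 (SE)) and Sox2-GFP lung pNSCs (-1.23 ± 0.062 (SE)), where it fell from 34.1, 34.98 and 35.7 to 15.6, 14.7 and 14.2 cpm. Kcnc1 rose in Sox2-GFP lung pNSCs, from 109, 107 and 99.8 to 311, 317 and 307 cpm (1.57 ± 0.025 (SE)), and fell in DRG pNSCs, from 414, 445 and 423 to 197, 193 and 199.9 (-1.12 ± 0.040 (SE), adjusted p = 3.77e-13). Kcnd2 was called in Tail-pNSC alone, at 71.9 and 67.5 against 152 and 151 cpm (-1.12 ± 0.048 (SE), adjusted p = 1.48e-118). Kcnv1, a silent subunit that tunes Kcnb channels, was called lower in 4 of 5 comparisons, most in Lung-pNSC, at 1.42 and 1.23 against 18.8 and 16.9 cpm (-3.74 ± 0.20 (SE), adjusted p = 1.19e-79), and was higher without overlap in DRG pNSCs, at 33.04, 28.4 and 29.04 against 16.2, 15.9 and 17.1 cpm (0.88 ± 0.084 (SE), under the limit of 1).

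The A-type subunit Kcnip3 moved in both directions. It was at 334 and 349 cpm in Brain-NSC, 59.9 and 58.7 in Tail-pNSC (-2.53 ± 0.040 (SE)) and 459 and 442 in Lung-pNSC (0.39 ± 0.032 (SE), under the limit). In the Wnt1Cre-mTmG experiment it was at 116, 115 and 118 cpm in brain NSCs, 51.3, 48.2 and 51.2 in Tail pNSCs (-1.21 ± 0.042 (SE), adjusted p = 8.28e-14) and 238, 239 and 248 in DRG pNSCs (1.06 ± 0.040 (SE), adjusted p = 9.12e-13). Sox2-GFP lung pNSCs held 722, 712 and 725 cpm against 231, 229 and 226 in their brain NSCs (1.65 ± 0.020 (SE)). Both tail lines were below, and the DRG and Sox2-GFP lung lines above their brain NSCs, with no overlap. Kcnab2 was lower in Wnt1Cre-mTmG Tail pNSCs, at 10.97, 10.7 and 11.5 against 25.99, 23.02 and 22.6 cpm (-1.11 ± 0.071 (SE), adjusted p = 3.23e-10), and higher in DRG pNSCs, at 53.5, 54.4 and 50.7 cpm (1.14 ± 0.063 (SE), adjusted p = 1.37e-10), and in Sox2-GFP lung pNSCs, at 55.4, 55.3 and 55.04 against 19.2, 18.6 and 19.6 (1.53 ± 0.052 (SE), adjusted p = 2.48e-188). Kcnab3, another subunit of this kind, was called higher in Tail-pNSC (2.57 and 2.74 against 1.17 and 0.536 cpm, 1.64 ± 0.33 (SE), adjusted p = 3.18e-06). Its call in Lung-pNSC (1.75 and 2.01 cpm, 1.13, adjusted p = 0.00471) was lost without Brain-NSC replicate 2 (0.67).

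Calcium-activated channels differed from line to line. Kcnma1 fell in Tail-pNSC (9.48 and 9.38 against 38.4 and 34.4 cpm, -1.95 ± 0.097 (SE)), in Wnt1Cre-mTmG Tail pNSCs (12.8, 14.8 and 13.6 against 89.3, 89.9 and 88.2, -2.69 ± 0.091 (SE)) and in DRG pNSCs (21.6, 24.9 and 24.04, -1.93 ± 0.094 (SE)). It rose in Sox2-GFP lung pNSCs, from 11.9, 13.8 and 13.1 to 35.7, 33.2 and 33.5 cpm (1.39 ± 0.065 (SE), adjusted p = 1.11e-99). Kcnn2, a small-conductance channel, was at 62.00, 60.4 and 60.5 cpm in Sox2-GFP brain NSCs and 2.44, 2.32 and 2.09 in their lung pNSCs (-4.74 ± 0.082 (SE)), whereas every sample of the other 9 groups lay between 0.567 and 9.16 cpm. Kcnn3 was higher in Wnt1Cre-mTmG Tail pNSCs than in their brain NSCs at 37.3, 32.9 and 35.5 cpm (1.62 ± 0.064 (SE), adjusted p = 4.20e-13) and lower in Sox2-GFP lung pNSCs, at 1.10, 1.77 and 1.46 against 15.4, 14.6 and 14.5 (-3.35 ± 0.13 (SE), adjusted p = 4.65e-145). Kcnt2, a sodium-activated pore, had no count in Brain-NSC, Tail-pNSC or Lung-pNSC. It rose from 0.715, 0.387 and 0.760 to 5.90, 5.93 and 5.13 cpm in Wnt1Cre-mTmG Tail pNSCs (3.16 ± 0.25 (SE), adjusted p = 4.73e-09) and fell from 2.42, 2.59 and 2.87 to 0.144, 0.325 and 0.178 in Sox2-GFP lung pNSCs (-3.57 ± 0.33 (SE), adjusted p = 2.75e-26).

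Whether a pNSC effect differed between experiments was tested as an interaction over all 28 samples for the 2 tail lines and the 2 lung lines. For tail, 30 of 82 tested members differed in effect (36.6%, beside 16.0% of 17393 genes, 7.05% more positive and 8.96% more negative), 15 with a more positive change in Tail-pNSC and 15 with a more negative one. For lung, 27 differed (32.9%, beside 14.1%, 8.24% more positive and 5.89% more negative), 14 more positive and 13 more negative in Lung-pNSC. Among them were Kcnj10, Kcnn4, Kcnc2, Kcnk1 and Kcnab2 for tail and Kcnn2, Kcnn3, Kcnab2, Kcnip3 and Kcnc1 for lung. Kcnn4 rose in Tail-pNSC, from 0.507 and 0.828 to 1.77 and 1.57 cpm, and fell in Wnt1Cre-mTmG Tail pNSCs, from 3.66, 2.22 and 4.22 to 0.568, 0.276 and 0.201 cpm (interaction 4.54 ± 0.47 (SE), adjusted p = 1.83e-10). Kcnc2, a fast delayed rectifier, had no count in Tail-pNSC and was at 7.17, 6.62 and 7.09 cpm in Wnt1Cre-mTmG Tail pNSCs against 2.14, 1.06 and 0.929 in their brain NSCs (2.33 ± 0.23 (SE), adjusted p = 1.02e-07). Its interaction was called (-6.801 ± 1.64 (SE), adjusted p = 6.56e-04), with a size that depends on the count added by the fit to a group at 0, and was lost without Brain-NSC replicate 2 (-5.36, adjusted p = 0.0986). Kcnn2 gave a lung interaction of 5.19 ± 0.20 (SE) (adjusted p = 6.41e-23), with 5.93 and 6.08 cpm in Lung-pNSC against 4.31 and 4.43 in Brain-NSC. Reporter, line and experiment differ together between the 2 experiments of each pair, and the age of the mice also differs in the lung pair, so these cannot be told apart.

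**Figure D5:**
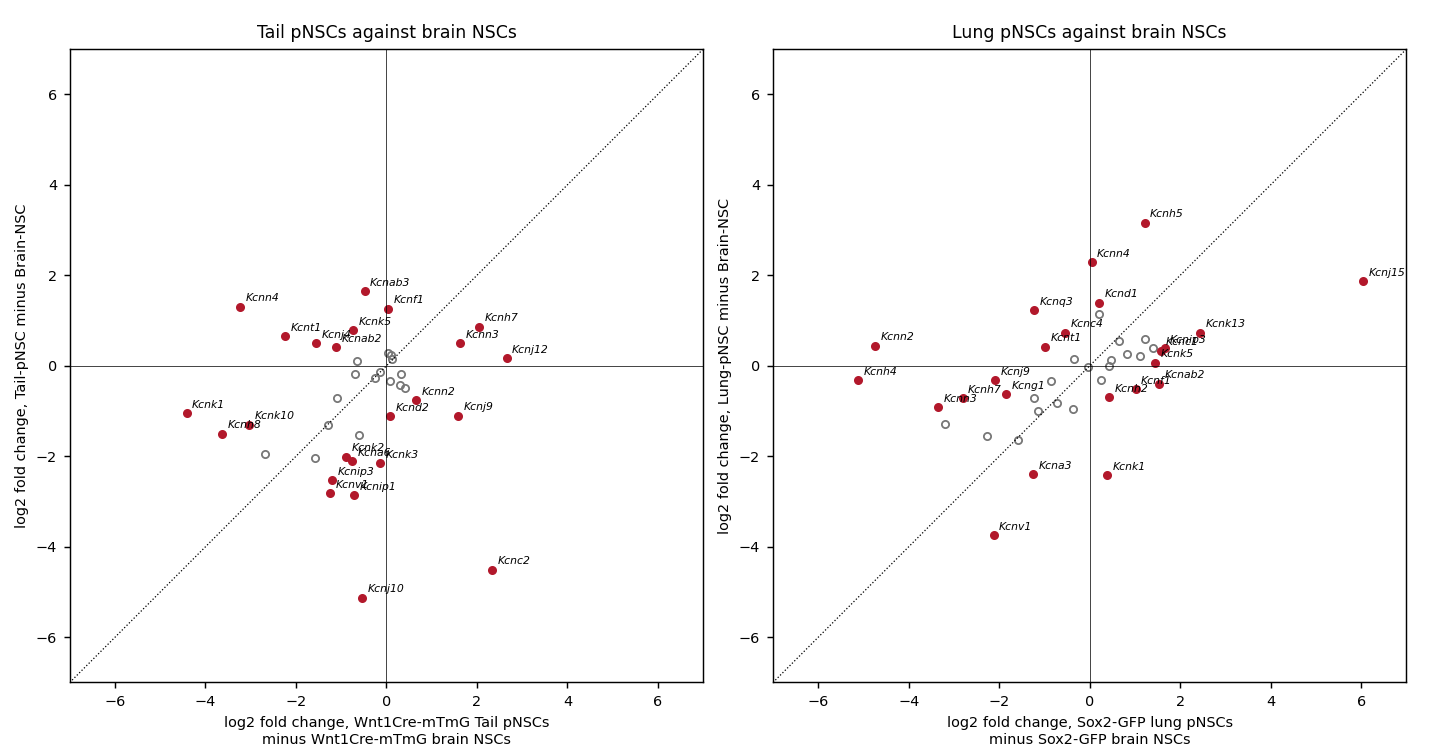
Log2 fold changes of pNSCs over brain NSCs in 2 experiments, for tail (left, 40 members) and lung (right, 42 members), each with a mean of at least 2 cpm in a group compared. Points are genes, filled and named where the interaction was called (24 and 23), and the dotted line marks equal change. Kcnj10 and Kcnc2 lie far below the line in the tail panel, and Kcnn2 and Kcnh4 far above it in the lung panel.

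The 3 brain NSC groups also differed from each other in members that carried these effects. No test was made between them, since experiment and line cannot be told apart. Kcnn2 was at 60.9 ± 0.924 (SD, n = 3) cpm in Sox2-GFP brain NSCs, 4.37 ± 0.0857 (SD, n = 2) in Brain-NSC and 5.57 ± 0.156 (SD, n = 3) in Wnt1Cre-mTmG brain NSCs. Kcnk1 was at 32.7 ± 1.97 (SD, n = 3) cpm in Wnt1Cre-mTmG brain NSCs against 2.62 ± 0.602 (SD, n = 2) in Brain-NSC and 1.47 ± 0.267 (SD, n = 3) in Sox2-GFP brain NSCs. Kcnc1 was at 105 ± 4.82 (SD, n = 3) cpm in Sox2-GFP brain NSCs against 422 ± 14.4 (SD, n = 2) and 428 ± 15.8 (SD, n = 3) in Brain-NSC and Wnt1Cre-mTmG brain NSCs.

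Genes that work with these channels were read from a list of 34: A-type partners, sulfonylurea receptors, BK partners, HCN channels, sodium pump subunits, FXYD proteins and potassium-chloride and related cotransporters. In pNSCs against brain NSCs the calls were 2 higher and 4 lower of 29 tested in Tail-pNSC (beside 10.9% of all genes), 1 and 1 of 29 in Lung-pNSC (beside 8.71%), 3 and 4 of 26 in Wnt1Cre-mTmG Tail pNSCs (beside 18.2%), 0 and 3 of 26 in DRG pNSCs (beside 9.53%), and 0 and 5 of 28 in Sox2-GFP lung pNSCs (beside 15.7%). Atp1b2, a sodium pump subunit of glia, was at 468 ± 6.50 (SD, n = 2) cpm in Brain-NSC and fell in Tail-pNSC, the line with the low Kcnj10, to 104 ± 1.73 (SD, n = 2) (log2 fold change -2.17 ± 0.037 (SE)). Dpp6, the membrane partner of Kcnd2 and Kcnd3, was at 109.8 ± 0.957 (SD, n = 3) cpm in Sox2-GFP brain NSCs and 22.1 ± 2.40 (SD, n = 3) in the lung pNSCs (-2.31 ± 0.043 (SE)). Against tissue cells 9 partners were higher and 12 lower in Tail-pNSC (beside 46.7% of all genes), 7 and 16 in Lung-pNSC (beside 55.0%) and 5 and 17 in Sox2-GFP lung pNSCs (beside 56.3%), with Abcc9, the receptor that joins Kcnj8, among the lower ones in each (49.5 ± 1.12 (SD, n = 2) cpm in Tail, 21.5 ± 1.51 (SD, n = 2) in Lung, no count in Tail-pNSC or Lung-pNSC). In DRG NCSCs against Wnt1Cre-mTmG brain NSCs, of 26 partners tested 12 were higher and 6 lower, beside 36.9% of all genes. The 5 neuron markers checked summed to 605 to 619 cpm in DRG NCSCs and to at most 38.4 cpm in any NSC or pNSC sample. Among them, Rbfox3 was lower in DRG NCSCs (7.50 cpm) than in Wnt1Cre-mTmG Tail pNSCs (9.60). The 5 fibroblast markers summed to 2017 to 2485 cpm in DRG NCSCs, against 29.9 to 30.6 in Wnt1Cre-mTmG brain NSCs. The 5 leukocyte markers summed to 74.02 to 82.55 against 1.88 to 2.71 cpm. The part of these cell types in the DRG NCSC differences was not tested.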

How the data were processed

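Gene counts deposited by the authors were used for all 28 samples. Per the labels and the study's methods, polyA-selected single-end reads were aligned to GRCm38 with HISAT2 and counted per gene with HTSeq. The strand setting, counting mode and annotation release are not given in the sources used here. The study calls its replicates biological, and the sources used here do not say whether they were separate cultures, clones or animals, so p values measure the spread between these samples, which may be technical.

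From the deposited counts, each comparison was fitted with edgeR 4.0.16 (R 4.3.3): TMM scaling, the default filter of the tool on low counts (minimum count 10), the quasi-likelihood test, two-sided, and Benjamini-Hochberg adjustment over all genes tested. The fit held all groups of the experiment, that is, the 5 groups without a reporter label, the 4 groups of the Wnt1Cre-mTmG experiment with the DRG NCSCs, or the Sox2-GFP groups with Lung. Calls needed an adjusted p under 0.05 together with a change of 1 log2 unit or more in either direction. Interactions were fitted over all 28 samples. Reads carried no molecular identifiers. Coordinates and exon lengths were taken from GENCODE M21 on GRCm38, in which all 92 members were matched by symbol, and RPKM is the TMM-scaled cpm per kilobase of exon.

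The members, the list of 34 partner genes and the marker lists were chosen with earlier results of these data known. Named were 22 members of a set list and, in each comparison, the 3 members with the largest rise and the 3 with the largest fall among called members with a mean of at least 2 cpm in the higher group and no overlap between groups, 46 members in all. Other members named are said to have been chosen after their values were seen, or are named in a full count. Alternatives were upper-quartile scaling, no filter, a mean count of at least 100, no fold limit, DESeq2 1.42.0, only the groups compared, a block for the replicate number, and leaving out each sample. Results for a few genes are not reported here and are left out of the figures. The procedure was tested on simulated data.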

Additional observations from a re-analysis of the deposited data

Results flagged for a closer look

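The effect of being a pNSC line rather than brain NSCs was compared between 2 experiments for each tissue, and the interaction of 39 effects of named members passed both thresholds. Values are log2 differences between the effect in the groups without a reporter label and the effect in the reporter line. Reporter, line and experiment differ together between the experiments of each pair, and the age of the mice also differs in the lung pair, so these cannot be told apart.

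For tail, a more positive effect in Tail-pNSC than in Wnt1Cre-mTmG Tail pNSCs was found for the calcium-activated channel Kcnn4 (4.54), the two-pore channels Kcnk1 (3.38) and Kcnk13 (2.69), the voltage-gated pores Kcnb2 (5.50) and Kcnh8 (2.14), the silent subunit Kcnf1 (1.22), the inward rectifier Kcnj4 (2.07) and the auxiliary subunits Kcnab3 (2.13), Kcnmb1 (1.58) and Kcnab2 (1.52). A more negative effect was found for the inward rectifiers Kcnj10 (-4.59) and Kcnj12 (-2.48), the pores Kcnc2 (-6.80), Kcna6 (-1.34) and Kcnd2 (-1.19), the auxiliary subunits Kcne4 (-5.28) and Kcnip3 (-1.32), the two-pore channels Kcnk3 (-2.01) and Kcnk2 (-1.11), the small-conductance channels Kcnn2 (-1.42) and Kcnn3 (-1.12), and the silent subunit Kcnv1 (-1.57). Kcnb2 had no count in Brain-NSC and Kcnc2 none in Tail-pNSC, so the size of both values depends on the count added by the fit.

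For lung, a more positive effect in Lung-pNSC than in Sox2-GFP lung pNSCs was found for Kcnn2 (5.19), Kcnn3 (2.44) and Kcnn4 (2.26), and for the pores Kcnh4 (4.79), Kcnc2 (4.05), Kcnh5 (1.95) and Kcnd1 (1.198). A more negative effect was found for Kcnj15 (-4.03), Kcnmb1 (-3.18), Kcnk1 (-2.80), Kcnab2 (-1.92), Kcnk13 (-1.70), Kcnv1 (-1.61), Kcnf1 (-1.52), Kcnip3 (-1.26), Kcnc1 (-1.22) and Kcna3 (-1.14). Kcnj15 had no count in Sox2-GFP brain NSCs, so its value depends on the count added by the fit.

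Of these, 9 were not called on leaving out 1 library. Without Tail-pNSC replicate 2 the tail values of Kcnk2 and Kcnh8 were -0.67 and 1.12. Without Brain-NSC replicate 2 that of Kcnc2 was -5.36. The tail value of Kcnb2 lost its call without Tail-pNSC replicate 1 or either Brain-NSC replicate (5.22 to 5.50), and that of Kcnmb1 without any of 7 libraries, namely Tail-pNSC replicate 2, Brain-NSC replicate 2, any Wnt1Cre-mTmG Tail pNSC replicate and Wnt1Cre-mTmG brain NSC replicates 1 and 2 (1.11 to 1.67). The tail call of Kcnmb1 was also lost with the replicate block, without the low-count filter and by DESeq2 (adjusted p of 0.0557, 0.0618 and 0.0611). For lung, Kcna3 lost its call without Lung-pNSC replicate 1 or Sox2-GFP lung pNSC replicate 2 (-0.96 to -0.93), and Kcnh5 (1.29 to 1.504) without Brain-NSC replicate 2 or Lung-pNSC replicate 1. The lung value of Kcnmb1 lost its call without Brain-NSC replicate 1, Lung-pNSC replicate 1 or Sox2-GFP lung pNSC replicate 3 (-2.78 to -2.40), and that of Kcnk13 without any of 8 libraries, that is, of the 10 in the comparison, all but Brain-NSC replicate 1 and Sox2-GFP brain NSC replicate 1 (-1.82 to -0.88). The lung call of Kcnk13 was also lost with the replicate block and with upper-quartile scaling (adjusted p of 0.0521 and 0.0582).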

How the results depend on the processing

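No named member changed direction under any alternative. Of 335 calls of named members, 42 were lost under some alternative, 39 of them on leaving out 1 sample and 16 under another setting, and 17 results not called became calls under a setting other than dropping the fold limit. Counts of called members were within 1.5 times of those reported under upper-quartile scaling, no filter, DESeq2, the groups compared alone, and leaving out each sample. Restricting the genes to a mean count of at least 100 tested fewer members and gave 8 for Tail-pNSC and 3 for Lung-pNSC against Brain-NSC, 23 for Tail-pNSC against Tail, 24 for Lung-pNSC against Lung, 10 and 11 for Wnt1Cre-mTmG Tail and DRG pNSCs against their brain NSCs, 21 for DRG NCSCs against those brain NSCs, 20 and 18 for Wnt1Cre-mTmG Tail and DRG pNSCs against DRG NCSCs, 13 and 20 for Sox2-GFP lung pNSCs against brain NSCs and Lung, and 14 and 15 for the tail and lung interactions. Without the fold limit, 38 differed for Tail-pNSC and 35 for Lung-pNSC against Brain-NSC, and 41 in the lung interaction.

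Leaving out each sample gave 19 to 22 calls for Tail-pNSC and 14 to 15 for Lung-pNSC against Brain-NSC, 28 to 30 and 26 to 28 for Wnt1Cre-mTmG Tail and DRG pNSCs, 30 to 35 for Sox2-GFP lung pNSCs against their brain NSCs, and 26 to 30 and 22 to 29 for the tail and lung interactions.

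Samples with the same replicate number did not deviate together: the correlation of their deviations from the group means lay between -0.03 and 0.03 over 45 pairs. In groups of 2 samples the deviations mirror each other, so some of these pairs repeat the same value. Replicates of most groups lay close together, so a pairing could go unseen and is not excluded. A block for the replicate number gave 22, 16, 63 and 65 calls for Tail-pNSC and Lung-pNSC against Brain-NSC and against Tail and Lung, 29, 27, 45, 49 and 46 in the Wnt1Cre-mTmG and DRG NCSC comparisons in the order above, 32 and 60 for Sox2-GFP lung pNSCs, and 30 and 26 for the interactions.

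Depth limited members of few counts. At 3 counts the floor was 0.130 to 0.295 cpm, and 10 to 28 of the 92 members had too few counts to be tested in a comparison.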
